A study of Homo sapiens with 6 samples.

Results

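The genes described here are the 7 that make up the core of the cerebral cavernous malformation (CCM) pathway, taken by their symbols: KRIT1 (CCM1), CCM2, PDCD10 (CCM3), HEG1, MAP3K3, KLF2 and KLF4. All 7 were among the 35793 genes listed, and 6 of them passed the filter on low values. KLF4 did not pass it. The RNA came from cardiomyocytes grown from WTC11, an established human induced pluripotent stem cell line, and harvested at day 15 of differentiation. Of the 6 libraries 3 were wild type, that is, unedited WTC11, and 3 carried a homozygous CRISPR/Cas9 knockout of STK25 made in WTC11. No treatment was given to either group. Only 1 knockout line was studied, so the edit and any other difference between the lines cannot be told apart.

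KRIT1, CCM2 and PDCD10 are the genes mutated in familial cavernous malformations, which are clusters of leaky brain capillaries. KRIT1 and CCM2 form a complex that is anchored at cell junctions by the transmembrane receptor HEG1 and that restrains the kinase MEKK3, encoded by MAP3K3. When this restraint is lost in endothelium or endocardium, MEKK3 signals through MEK5 and ERK5 to MEF2 factors, which switch on the transcription factors KLF2 and KLF4. PDCD10 binds CCM2 and also binds the kinases STK24, STK25 and STK26, which is the link between this pathway and the deleted gene.

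None of the 6 tested genes passed the test between the genotypes. With limma on log2(value + 1), where a value is a read count divided by 1 factor per library (a normalized count), 0 of the 6 had a Benjamini-Hochberg adjusted p under 0.05, against 12.8% of all genes tested. CCM2 and MAP3K3 had an unadjusted p under 0.05, so 2 of 6, against 27.5% of all genes. edgeR's quasi-likelihood test and DESeq2, run on the recovered reads, also called 0 of the 6, against 12.0% and 20.7% of all genes. In 5 of the 6 the fitted change was positive, against 50.4% of all genes tested. The log2 fold changes of all 6 had a median of 0.49, beside 0.01 for all genes tested. With libraries scaled to equal totals these medians were 0.21 and -0.27, and 4 of the 6 were positive. CCM2 was the one member whose 3 knockout libraries all lay above the 3 wild-type libraries, a pattern that 16.2% of all genes showed, or 33.4% with those separated the other way included.

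The promoters of the members are shown where the results below refer to them. They are RefSeq sequences on GRCh38.p14 from 250 bases before to 50 bases after a transcript start, 5′ to 3′ on the gene's strand, and all 7 members had at least 1. Both strands were searched for the CCAAT box (CCAAT), an ETS core (CCGGAAG) and a MEF2 site (CTA and TAG separated by any 4 bases), and matches are in capitals. The motifs were chosen after the values were seen. No 2 of the matches shown overlap. Over all 35116 promoters, 34.6% held the CCAAT box, 10.3% the ETS core and 2.73% the MEF2 site.

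The first of 2 PDCD10 windows, at chr3:167734843-167735142, minus strand, lies towards the divergent gene SERPINI1, whose values are compared with those of PDCD10. It held 1 CCAAT box and 1 ETS core.
PDCD10: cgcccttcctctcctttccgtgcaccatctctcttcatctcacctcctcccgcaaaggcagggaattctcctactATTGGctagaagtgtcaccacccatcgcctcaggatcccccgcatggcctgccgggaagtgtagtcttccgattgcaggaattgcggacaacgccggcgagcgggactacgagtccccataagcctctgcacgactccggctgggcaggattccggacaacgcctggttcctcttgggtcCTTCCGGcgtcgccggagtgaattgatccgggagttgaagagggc
The MAP3K3 window at chr17:63622167-63622466, plus strand, is shown because this gene had the largest fitted change. It held 4 CCAAT boxes.
MAP3K3: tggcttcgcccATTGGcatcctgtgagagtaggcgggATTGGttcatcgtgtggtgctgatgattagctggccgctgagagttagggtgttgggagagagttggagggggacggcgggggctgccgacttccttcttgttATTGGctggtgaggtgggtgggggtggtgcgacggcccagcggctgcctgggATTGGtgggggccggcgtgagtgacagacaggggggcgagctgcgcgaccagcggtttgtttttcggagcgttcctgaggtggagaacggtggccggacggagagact
The KLF2 window at chr19:16324576-16324875, plus strand, is shown because KLF2 is the end point of the MEF2 branch. It held 1 MEF2 match, the only one in the members' windows.
KLF2: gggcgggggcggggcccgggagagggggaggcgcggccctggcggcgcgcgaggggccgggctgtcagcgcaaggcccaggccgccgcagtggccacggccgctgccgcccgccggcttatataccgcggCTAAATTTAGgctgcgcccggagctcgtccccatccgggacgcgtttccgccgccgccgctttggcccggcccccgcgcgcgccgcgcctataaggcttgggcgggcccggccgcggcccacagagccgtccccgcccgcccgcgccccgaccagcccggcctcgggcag
The second of 3 CCM2 windows, at chr7:44999951-45000250, plus strand, held 1 ETS core. One of the 2 KRIT1 windows held 2, so KRIT1, CCM2 and PDCD10 each had an ETS match in at least 1 window. The other PDCD10 window held no match. HEG1, MAP3K3, KLF2 and KLF4 had none, but only 1 window was searched for each of them.
CCM2: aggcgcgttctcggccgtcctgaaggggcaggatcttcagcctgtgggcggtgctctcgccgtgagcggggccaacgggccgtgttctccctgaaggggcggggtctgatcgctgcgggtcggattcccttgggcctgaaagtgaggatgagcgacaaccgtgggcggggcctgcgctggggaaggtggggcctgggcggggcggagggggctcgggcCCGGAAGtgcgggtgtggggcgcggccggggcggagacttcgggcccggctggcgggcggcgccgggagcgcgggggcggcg

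The targeted gene was checked first. STK25 read 8874, 6774 and 8710 normalized counts in wild-type replicates 1 to 3 and 3906, 3434 and 3820 in the knockout, a log2 fold change of -1.12 (limma, SE 0.19, adjusted p = 0.00903). Its RNA was lower in all 3 knockout libraries and was still present in each. Without wild-type replicate 1 the value was -1.05 and the adjusted p 0.0611. Libraries held from 22443904 to 53224112 reads. The second principal component, with 24.1% of the variance, separated wild-type replicate 2 and knockout replicate 1 from the remaining 4, so results are also given without this pair.

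Cardiomyocyte identity was checked against its markers. TNNT2, cardiac troponin T, had 206999 to 270043 normalized counts in wild-type libraries and 226420 to 359162 in knockout libraries. Of 8 cardiomyocyte markers 7 did not pass the test, and the transcription factor gene NKX2-5 fell (log2 fold change -1.71, limma adjusted p = 0.00135). The summed level of the 8 was 550159 to 725953 in wild-type libraries and 819447 to 903720 in knockout libraries, without overlap. These sums rest on the deposited scaling. The median log2 fold change of the 8 was 0.48, or 0.20 with equal totals and 0.02 after quantile normalization. The 14 endothelial and endocardial markers bear on HEG1, KLF2 and KLF4, which are best known from those cells. CDH5, TIE1, VWF, ERG and ROBO4 each had a mean under 3 normalized counts in both genotypes, although PECAM1 and KDR had means of 38.7 and 229 in the wild type. TIE1, VWF, ERG and ROBO4 were at 0 in all 3 knockout libraries. Of the 7 tested markers 6 had a positive log2 fold change, with a median of 0.95 over the 7, or 0.67 with equal totals. The summed level of the list was 1516 to 1750 in the wild type and 2439 to 3122 in the knockout. Of its 7 tested genes ESAM, a junction protein, rose, with means of 13.5 ± 7.12 in the wild type and 712 ± 85.3 normalized counts in the knockout (SD, n = 3 per genotype; by limma 5.78 on the log2 scale, SE 0.49, adjusted p = 0.000496), and the other 6 did not pass. The part of such cells in the members' values was not tested, and in bulk RNA fewer cells of a type and less RNA per cell cannot be told apart.

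The smooth muscle markers differed more. Of 5, ACTA2, TAGLN, MYH11 and CNN1 rose, and the summed level was 80450 to 89660 in the wild type and 489337 to 540814 in the knockout. For fibroblast and stromal markers 3 rose and 1 fell of 8, with sums of 12924 to 26543 and 7871 to 16397. Of 6 epithelial markers 2 rose and 2 fell, with sums of 134017 to 141665 and 284155 to 315211. Of 5 epicardial markers ALDH1A2 rose, with sums of 236 to 326 and 568 to 852. Of the 4 tested among 5 pluripotency markers SOX2 rose, with sums of 329 to 422 and 595 to 652. No marker in these 5 lists was at 0 in all 6 libraries.

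The genes of the CCM complex are described next, beginning with KRIT1, the adaptor that binds the tail of HEG1. KRIT1 (ENSG00000001631.15) spans positions 92198969 to 92246166 of chromosome 7, minus strand, by GENCODE 29 (GRCh38), the annotation used for every gene. It read 1107, 928 and 1174 normalized counts in wild-type replicates 1 to 3 and 573, 1049 and 1153 in knockout replicates 1 to 3. Knockout replicate 1 was the lowest library, and the other 2 knockout libraries fell within the wild-type range. The means were 1070 ± 128 and 925 ± 309 (SD, n = 3 per genotype), and the fitted log2 fold change was -0.27 (SE 0.30, 95% confidence interval -0.96 to 0.42, limma adjusted p = 0.626). Without knockout replicate 1 it was 0.047, so the sign rested on that library, and with equal totals it was -0.55 (limma adjusted p = 0.398).

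CCM2 encodes the scaffold that joins KRIT1 to MEKK3. CCM2 (ENSG00000136280.16, chromosome 7, 44999475 to 45076469, plus strand) read 1308, 1052 and 1512 normalized counts in the wild type and 1729, 1925 and 1876 in the knockout. The groups did not overlap, and the lowest knockout library stood above the highest wild-type library. The means were 1291 ± 231 and 1843 ± 102 (SD, n = 3 per genotype). The log2 fold change was 0.53 (SE 0.20, 95% confidence interval 0.05 to 1.00, limma adjusted p = 0.140), and an exact two-sided permutation test gave p = 0.1, the smallest that 3 against 3 allows. With libraries scaled to equal totals the value was 0.25.

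PDCD10 is the binding partner of STK25. PDCD10 (ENSG00000114209.14, chromosome 3, 167683298 to 167734939, minus strand) read 2322, 2953 and 1910 normalized counts in the wild type and 3567, 2774 and 3429 in the knockout. Wild-type replicate 2 lay above knockout replicate 2, so the groups overlapped. The means were 2395 ± 525 and 3257 ± 423 (SD, n = 3 per genotype), and the fitted log2 fold change was 0.46 (SE 0.22, 95% confidence interval -0.06 to 0.97, limma adjusted p = 0.234). PDCD10 did not pass the test, and the interval runs from 0.960 to 1.97 times the wild-type level. Without wild-type replicate 2 and knockout replicate 1 the log2 fold change was 0.55 with an adjusted p of 0.0277 (limma), a fit in which 30.6% of all genes were called. With equal totals it was 0.18 (limma adjusted p = 0.618).

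The gene that starts next to PDCD10 did change. SERPINI1, which encodes the protease inhibitor neuroserpin, starts 304 bases from PDCD10 on the opposite strand and was looked up by that position after the members' values were known. It read 545, 682 and 663 normalized counts in the wild type and 77.5, 106 and 109 in the knockout. All knockout libraries lay far below the wild type, with a log2 fold change of -2.69 (limma, SE 0.27, adjusted p = 0.00113), and its side of the threshold was kept in all 18 alternatives. The corresponding neighbour of KRIT1, ANKIB1, starts 68 bases away on the other strand and had a log2 fold change of -0.14 (limma, SE 0.30, adjusted p = 0.816).

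**Figure D1:**
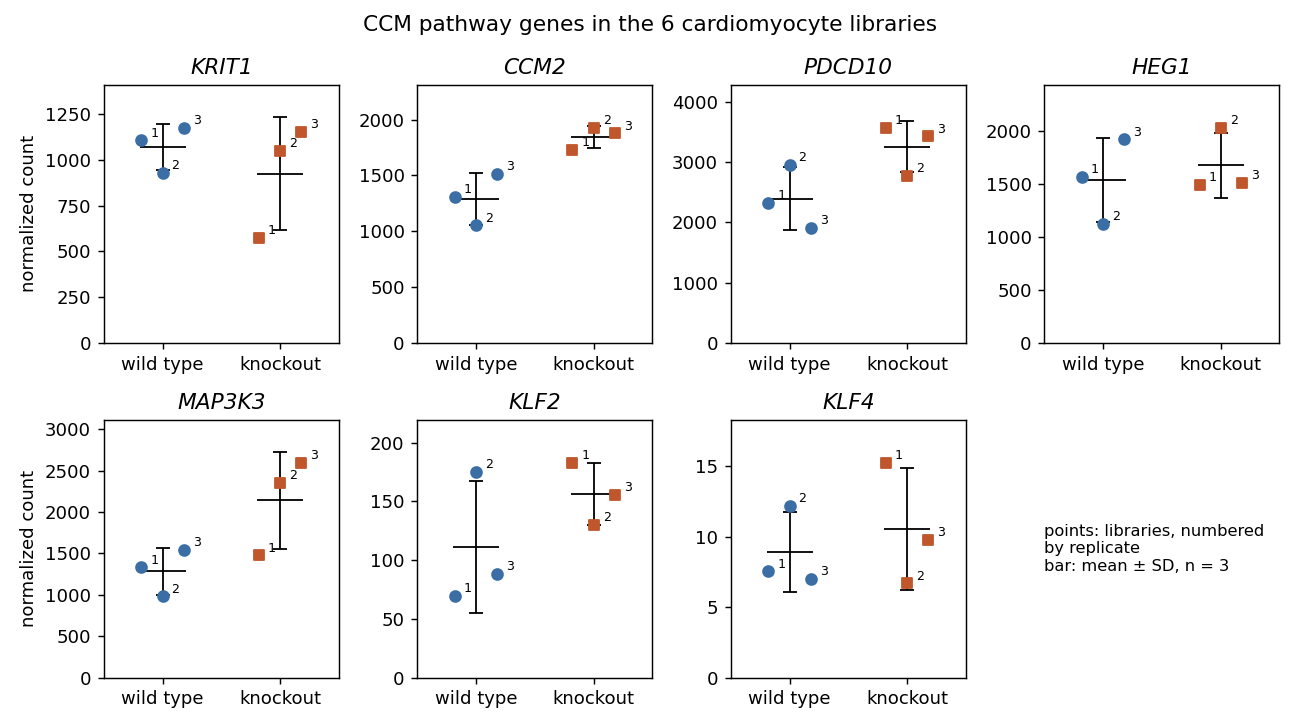
Normalized counts of the 7 genes in each library, with wild-type libraries as circles, knockout libraries as squares, replicate numbers beside the points and bars for the mean ± SD of 3 libraries; each vertical axis starts at 0. The genotypes are separated for CCM2 and overlap for the other 6 genes.

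HEG1 encodes the receptor that holds KRIT1 at the membrane. HEG1 (ENSG00000173706.13, chromosome 3, 124965710 to 125055958, minus strand) read 1563, 1123 and 1918 normalized counts in the wild type and 1491, 2026 and 1507 in the knockout. The groups overlapped, with 2 of the knockout libraries inside the wild-type range. The means were 1535 ± 398 and 1675 ± 304 (SD, n = 3 per genotype), and the fitted log2 fold change was 0.14 (SE 0.26, 95% confidence interval -0.45 to 0.74, limma adjusted p = 0.775). The sign turned to -0.14 with equal totals and to -0.063 without wild-type replicate 2.

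MAP3K3, the kinase that the complex restrains, had the largest fitted change among the 6 tested genes. MAP3K3 (ENSG00000198909.7, chromosome 17, 63622415 to 63696303, plus strand) read 1334, 983 and 1542 normalized counts in the wild type and 1477, 2351 and 2596 in the knockout. Knockout replicates 2 and 3 stood above all wild-type libraries, and knockout replicate 1 lay within their range. The means were 1286 ± 283 and 2141 ± 588 (SD, n = 3 per genotype), and the fitted log2 fold change was 0.72 (SE 0.28, 95% confidence interval 0.07 to 1.37, limma adjusted p = 0.145). Without knockout replicate 1 the log2 fold change was 0.97 and passed the threshold (limma adjusted p = 0.0393, with 14.2% of all genes called in that fit), and without wild-type replicate 2 as well it was 0.78 (limma adjusted p = 0.00365). With equal totals it was 0.44 (limma adjusted p = 0.488). The annotated spans of STRADA and LIMD2, on the other strand, overlap that of MAP3K3, and whether they share reads was not tested. STRADA had a log2 fold change of -0.45 (limma adjusted p = 0.220) and LIMD2 of 0.46 (limma adjusted p = 0.416).

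The paralog of MAP3K3 lay on the other side of 0. MAP3K2, which encodes the related kinase MEKK2, read 731, 458 and 780 normalized counts in the wild type and 266, 415 and 391 in the knockout. Its knockout libraries were all below the wild type, and the log2 fold change was -0.86 (SE 0.30, limma adjusted p = 0.110; DESeq2 adjusted p = 0.0398). Without wild-type replicate 2 and knockout replicate 1 it was -0.91 (limma adjusted p = 0.00783). Neither kinase gene passed the main test, but their ratio within a library, which no scaling of that library alters, was tight. Per kb of the longest transcript, MAP3K3 was 4.16, 4.90 and 4.51 times MAP3K2 in the wild type and 12.7, 12.9 and 15.1 times in the knockout. The groups did not overlap, with means of 4.52 ± 0.367 and 13.6 ± 1.35 (SD, n = 3 per genotype) and a change of 1.59 on the log2 scale (exact two-sided permutation p = 0.1, the smallest possible). This pair was chosen after its fold changes were seen on opposite sides of 0, so the separation is only a description. How reads were divided between these paralogs could not be checked from gene totals.

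**Figure D2:**
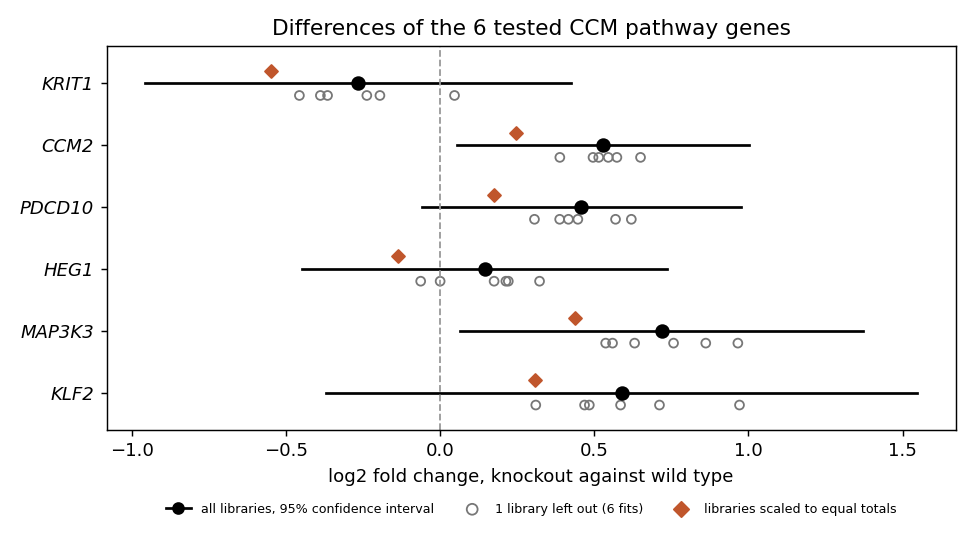
Log2 fold changes of the 6 tested genes, knockout against wild type: black points with 95% confidence intervals from limma, open circles for the 6 fits that each leave out 1 library, and diamonds for libraries scaled to equal totals. The intervals of CCM2 and MAP3K3 lie above 0 before adjustment over all genes, and those of the other 4 genes cross it.

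KLF2 and KLF4, the transcription factors at the end of the pathway, were low. KLF2 (ENSG00000127528.5, chromosome 19, 16324817 to 16327874, plus strand) read 69.5, 175 and 88.7 normalized counts in the wild type and 183, 130 and 156 in the knockout. Wild-type replicate 2 was second only to knockout replicate 1, and the groups overlapped. The means were 111 ± 56.3 and 156 ± 26.3 (SD, n = 3 per genotype), and the fitted log2 fold change was 0.59 (SE 0.41, 95% confidence interval -0.37 to 1.55, limma adjusted p = 0.412). The interval runs from 0.774 to 2.92 times the wild-type level. Without wild-type replicate 2 the log2 fold change was 0.97 (limma adjusted p = 0.140), and with equal totals 0.31 (limma adjusted p = 0.640).

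KLF4 (ENSG00000136826.14, chromosome 9, 107484852 to 107490482, minus strand) had few reads in every library. It had 5, 16 and 11 reads in the wild-type libraries and 12, 6 and 11 in the knockout, or 7.55, 12.2 and 7.02 against 15.3, 6.69 and 9.78 normalized counts. The groups overlapped, with means of 8.92 ± 2.84 and 10.6 ± 4.34 (SD, n = 3 per genotype). Its mean over all libraries, 9.75, was just under the minimum of 10, so it was not tested with the rest. With no filter its log2 fold change was 0.19 with an adjusted p of 0.905 (limma), and the difference of its mean log2 values was -0.06 with equal totals.

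Per kb of the longest annotated transcript, the group means had 1 order in both genotypes. PDCD10 was highest in the wild type at 1159 ± 254 normalized counts per kb (SD, n = 3), followed by CCM2 at 522 ± 93.4. MAP3K3 at 267 ± 58.7, KRIT1 at 225 ± 26.8 and HEG1 at 168 ± 43.5 came next, and neighbours among these 3 overlapped between libraries. KLF2 had 55.1 ± 27.9 and KLF4 3.17 ± 1.01. In the knockout PDCD10 had 1575 ± 205, CCM2 746 ± 41.3, MAP3K3 444 ± 122, KRIT1 194 ± 64.9, HEG1 183 ± 33.3, KLF2 77.5 ± 13.0 and KLF4 3.76 ± 1.54 (SD, n = 3 per genotype). In the knockout KRIT1 and HEG1 overlapped, and HEG1 was the higher in replicates 1 and 2. The order of the means was the same with the median transcript length in place of the longest.

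Within-library ratios were taken after the values were seen. There were 7 with that of MAP3K3 to MAP3K2, of which 3 separated the genotypes and 4 overlapped. No share over other gene pairs was taken, so this count has no background. Of single genes 33.4% separated the genotypes. CCM2 was 2.28, 2.185 and 2.48 times KRIT1 per kb in the wild type and 5.81, 3.54 and 3.14 times in the knockout. The groups did not overlap, with means of 2.31 ± 0.152 and 4.16 ± 1.44 (SD, n = 3 per genotype; exact two-sided permutation p = 0.1), and knockout replicate 1 was the most extreme. PDCD10 per kb was 0.321, 0.544 and 0.262 times the sum of STK24, STK25 and STK26 in the wild type and 1.13, 0.610 and 0.712 times in the knockout, again without overlap (exact two-sided permutation p = 0.1). The sum includes STK25 itself, whose RNA was lower in the knockout, and the separation rests on including it. A ratio without STK25 was not taken, but its groups would overlap. Per kb, wild-type replicate 2 had more PDCD10 than knockout replicate 2 (1429 against 1342). It also had less STK24 (284 against 389) and less STK26 (877 against 1068). The ratio of PDCD10 to CCM2 overlapped, with means of 2.33 ± 0.941 and 2.12 ± 0.375 (SD, n = 3 per genotype; exact two-sided permutation p = 1.0). So did PDCD10 to KRIT1, with means of 5.30 ± 1.84 and 9.09 ± 4.55 (exact two-sided permutation p = 0.3), and MAP3K3 to CCM2, with 0.508 ± 0.0253 and 0.591 ± 0.139 (exact two-sided permutation p = 0.4). The share of STK25 in the summed 3 kinases was 54.7% ± 1.18 and 41.6% ± 12.0, with knockout replicate 1 at 55.4% inside the wild-type range (exact two-sided permutation p = 0.3).

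**Figure D3:**
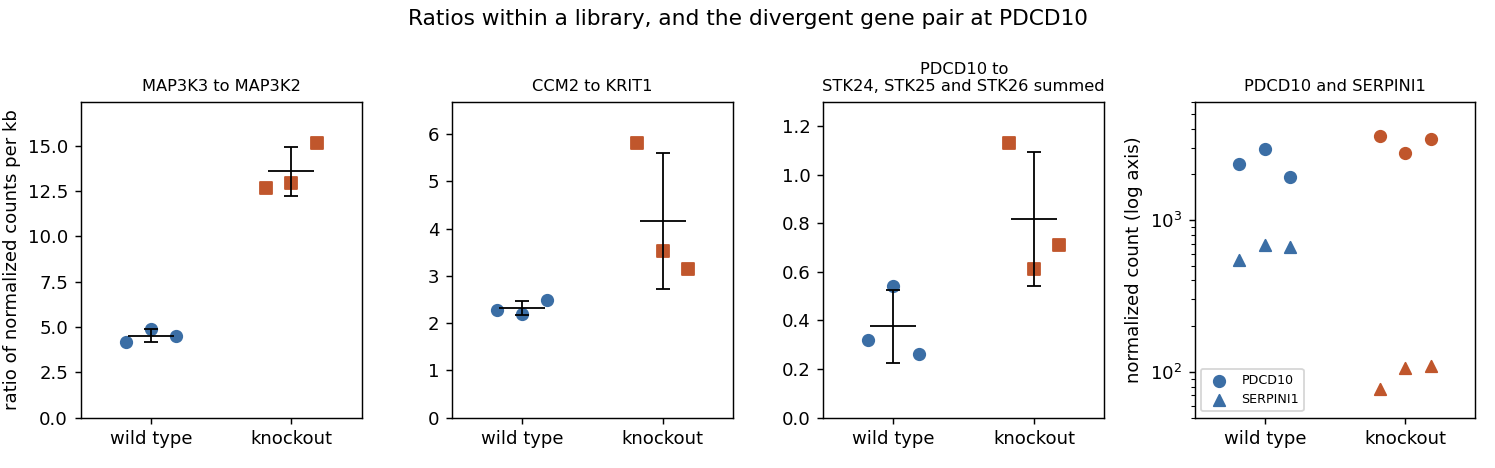
The first 3 panels show ratios of normalized counts per kb of transcript in each library, with bars for the mean ± SD of 3 libraries, and the last shows PDCD10 (circles) and SERPINI1 (triangles) on a log axis; blue is wild type and orange knockout. MAP3K3 to MAP3K2 spans 4.16 to 4.90 in wild-type libraries and 12.7 to 15.1 in knockout libraries, and SERPINI1 is lower in all knockout libraries while PDCD10 is not.

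As a measure of likeness, the distance between log2 profiles centred on their own means was used, where 0 is an identical profile. The smallest distances were 0.57 between CCM2 and MAP3K3, 0.58 between CCM2 and HEG1 and 0.65 between PDCD10 and KLF4. The largest was 1.91, between KRIT1 and KLF2. For scale, the distance of a member from a flat profile ran from 0.68 for HEG1 to 1.26 for KLF2. KLF4 had only 5 to 16 reads per library, so its profile is imprecise. Wild-type replicate 2 was the lowest wild-type library for KRIT1, CCM2, HEG1 and MAP3K3 and the highest for PDCD10, KLF2 and KLF4, and it was 1 of the 2 libraries that stood apart.

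Among 13035 other genes with a mean of at least 50, the nearest profile to CCM2 was that of PRKAR1A, a regulatory subunit of protein kinase A, at a distance of 0.042. It read 17566, 14128 and 20002 normalized counts in the wild type and 23723, 25988 and 24938 in the knockout. For PDCD10 the near profiles were MAIP1 (0.116) and CENPBD1P1 (0.142), for KRIT1 MIS12 (0.156), and for HEG1 CCDC85C (0.112) and WDR82 (0.139). For MAP3K3 they were CRAT (0.157) and MRS2 (0.164), for KLF2 IDNK (0.180), for KLF4 NDUFS7 (0.099) and ZNF302 (0.101), and second for CCM2 DYNC1LI1 (0.108). These distances are given as a description.

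The other genes of the pathway were followed in 6 lists of 77 genes, 69 of them tested. Of these, 9 rose, against 5.97% of all genes, and 7 fell, against 6.79%. The 7 include STK25, the targeted gene. Together the genes that rose or fell were 23.2% of the tested list genes, against 12.8% of all genes. The median log2 fold change of the 69 was 0.04. With equal totals 5 rose and 10 fell, beside 549 and 1456 of all genes, where the main fit had 927 and 1055. The count was 4 without wild-type replicate 1, or 5.71% of the list genes against 5.11% of all genes. It was also 4 when wild-type replicate 3 was omitted (5.80% against 5.87%), so the share was near that of all genes in both fits. It was 10 without knockout replicate 2 (14.3% against 8.16%) and 5 when knockout replicate 3 was omitted (7.14% against 6.18%). Leaving out wild-type replicate 2 and knockout replicate 1 together gave 32 (46.4% against 30.6%).

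Of 11 tested partners of the CCM complex, 1 rose, 1 fell and 9 did not pass, with a median of -0.17. ITGB1BP1, which encodes the KRIT1-binding integrin regulator ICAP1, rose, with means of 3979 ± 876 in the wild type and 9423 ± 2645 normalized counts in the knockout (SD, n = 3 per genotype; by limma 1.23 on the log2 scale, SE 0.26, adjusted p = 0.0204). Its libraries read 3547, 4987 and 3403 against 12440, 7507 and 8323, with no overlap. The adjusted p reached 0.0976 when 1 library was left out, and it exceeded the threshold when wild-type replicates 1 or 3 or knockout replicate 3 was the one omitted. The gene that fell was STK25, the targeted gene itself. STK24 (-0.35, limma adjusted p = 0.588) and STK26 (-0.33, limma adjusted p = 0.568), the other kinases that bind PDCD10, did not pass, and both were slightly positive without knockout replicate 1. CCM2L, the endothelial paralog of CCM2, had at most 14.5 normalized counts in any library and was not tested.

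In the kinase cascade below MEKK3, 1 of 9 tested genes rose and 1 fell, with a median of 0.04. It became -0.24 when totals were made equal and -0.10 after quantile normalization, beside -0.27 and 0.02 for all genes. MEF2C, one of the factors that act on KLF2, rose, with means of 3299 ± 598 in the wild type and 7239 ± 1082 normalized counts in the knockout (SD, n = 3 per genotype; by limma 1.14 on the log2 scale, SE 0.22, adjusted p = 0.0138; 0.0939 with equal totals). It was over the threshold without wild-type replicate 3 or knockout replicates 2 or 3, with adjusted p-values up to 0.0601. MAP2K3, a kinase upstream of p38, fell from 1258 ± 114 to 649 ± 195 (SD, n = 3 per genotype; by limma -0.99 on the log2 scale, adjusted p = 0.0486). That call was lost in 12 of 18 alternatives, among them all 6 that left out a library, with adjusted p-values up to 0.176. MAP2K5 (0.63, limma adjusted p = 0.220) and MAPK7 (-0.26, limma adjusted p = 0.634), which encode MEK5 and ERK5, did not pass.

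Genes that respond to KLF2 and KLF4 or mark CCM lesions moved in both directions. Of 12 tested, 2 rose, 2 fell and 8 did not pass, with a median of -0.57. THBD and NOS3, which encode thrombomodulin and endothelial nitric oxide synthase, are both induced by KLF2 in endothelium. THBD read 25.7, 24.4 and 21.7 normalized counts in the wild type and 75.0, 150.5 and 88.9 in the knockout, a log2 fold change of 2.02 (limma, SE 0.43, adjusted p = 0.0216). NOS3 read 189, 161 and 233 against 43.2, 68.0 and 29.3, a log2 fold change of -2.09 (limma, SE 0.41, adjusted p = 0.0158). The 2 genes thus moved in opposite directions, each without overlap. With 1 library left out the adjusted p reached 0.0839 for THBD, over the threshold without wild-type replicates 1 or 3 or knockout replicates 2 or 3, and 0.0767 for NOS3, over it without wild-type replicates 1 or 3 or knockout replicate 3.

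The genes around NOS3 were lower with it. NOS3 lies on chromosome 7, and of the 54 tested genes that start within 5 Mb of it 25 fell and 0 rose, with a median log2 fold change of -1.16. The part of this region in the value of NOS3 was not tested. The same count around the members gave medians from -0.30 for the 25 genes near PDCD10 to 0.14 for the 50 near CCM2. Near KRIT1, also on chromosome 7, 1 of 41 genes rose and 7 fell, with a median of -0.04. Beside these counts, 5.97% of all genes tested rose and 6.79% fell.

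EDN1, the vasoconstrictor endothelin, and VCAN, the matrix proteoglycan versican that ADAMTS proteases cleave, had the lowest adjusted p-values in this list. EDN1 rose, with means of 240 ± 33.2 in the wild type and 1167 ± 75.5 normalized counts in the knockout (SD, n = 3 per genotype; by limma 2.29 on the log2 scale, adjusted p = 0.000938). VCAN fell from 17215 ± 1670 to 4289 ± 318 (SD, n = 3 per genotype; by limma -2.003 on the log2 scale, adjusted p = 0.000627). Both calls were kept in all 18 alternatives. ADAMTS1 (-1.18, limma adjusted p = 0.158) and ADAMTS9 (-0.67, limma adjusted p = 0.109) did not pass.

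Among 13 other KLF genes tested 2 rose and none fell, and the median of 0.09 was -0.19 with equal totals, beside -0.27 for all genes. KLF5, which also acts in smooth muscle, went from 41.4 ± 17.99 to 206 ± 13.8 normalized counts (SD, n = 3 per genotype; by limma 2.37 on the log2 scale, adjusted p = 0.00938), a call kept in all 18 alternatives. KLF7 went from 290 ± 54.0 to 652 ± 48.8 (SD, n = 3 per genotype; by limma 1.18 on the log2 scale, adjusted p = 0.0192), with adjusted p-values up to 0.0690 over the 4 fits without 1 library that lost it, those without wild-type replicates 1 or 3 or knockout replicates 2 or 3. With equal totals KLF7 had 0.90 (limma adjusted p = 0.0856). The smooth muscle markers given above rose with KLF5, and their part in its value was not tested.

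Of 13 RhoA and ROCK genes 2 rose and none fell, with a median of 0.19. With equal totals it was -0.09, beside -0.27 for all genes. They were MYL12A (log2 fold change 1.46, limma adjusted p = 0.00967) and MYL12B (0.89, limma adjusted p = 0.0439), which encode near-identical regulatory light chains of non-muscle myosin, so reads could have been split between them. MYL12A lost its call without wild-type replicates 1 or 3, and MYL12B lost it in 10 of 18 alternatives, among them equal totals (0.61, limma adjusted p = 0.0626) and all fits with 1 library omitted except that without knockout replicate 1. RHOA itself was 14635 ± 306 in the wild type and 21787 ± 3511 in the knockout (SD, n = 3 per genotype; by limma 0.56 on the log2 scale, adjusted p = 0.112).

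The early response genes, which are induced with KLF2 and KLF4 by many stimuli, were mixed. Of 11 tested, 1 rose and 3 fell, with a median of -0.19. EGR1 fell by 2.97 on the log2 scale (limma adjusted p = 0.0163), ATF3 by 1.08 (limma adjusted p = 0.0132) and JUN by 0.90 (limma adjusted p = 0.0237), while ZFP36 rose by 1.13 (limma adjusted p = 0.0221). Each lost its call without wild-type replicates 1 or 3 or knockout replicate 3, as did JUN without knockout replicate 2 and ZFP36 without wild-type replicate 2. With equal totals ZFP36 had 0.85 (limma adjusted p = 0.0567).

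**Figure D4:**
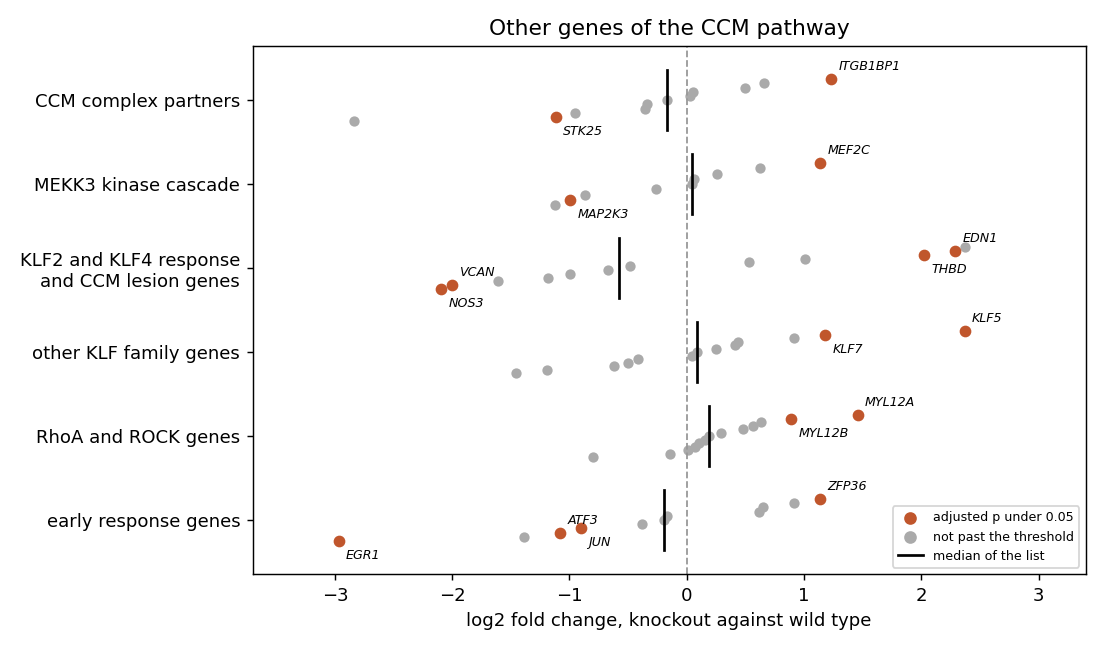
Log2 fold changes of the 69 tested genes in the 6 pathway lists, knockout against wild type, with 1 point per gene, orange where limma's adjusted p was under 0.05, and a black line at the median of each list. Points lie on both sides of 0 in every list; 9 of the orange genes are higher and 7 lower.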

How the data were processed

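RNA was measured in 6 libraries of WTC11 cardiomyocytes. The deposited table holds 1 signal per gene symbol and library, a normalized count. Per the submitters' processing notes the authors' tools included bcl2fastq 2.19, kallisto 0.44.0 and DESeq2 1.28.1, with GRCh38; their roles, the annotation and the use of strand are not given in the sources used here. Per the labels' protocols cDNA came from a Clontech low-input kit and libraries from NexteraXT.

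All values in a column were whole reads over a single factor (100% within 0.01 of a whole read), which gave back the reads, from 22443904 to 53224112 per library. If kallisto, which estimates counts, made them, they are rounded estimates. The labels call the libraries biological replicates without naming cultures, so p-values measure the spread between these samples.

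limma 3.58.1 in R 4.3.3 (lmFit, eBayes with a trend) was applied to log2(value + 1). It tested the 15536 genes whose mean reached 10, with Benjamini-Hochberg adjustment over all of them and a threshold of 0.05. Fold changes on this scale understate those of low genes. edgeR 4.0.16 and DESeq2 1.42.0 on the recovered reads were alternatives, as were other pseudocounts, filters, scalings and eBayes settings, a replicate block and leaving out libraries; fits were tested on simulated data. The fit without wild-type replicate 2 and knockout replicate 1, and the ratios, were added after the data were seen.

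Named from each list were genes with an adjusted p under 0.05, at most the 6 largest, plus STK24, STK25, STK26, MAP3K2 and CCM2L, and the 2 nearest profiles per member, of which 1 each for KRIT1 and KLF2 is not reported here. Any other gene was named after its values were seen. The members and lists were chosen with earlier results of these data known. Positions are from GENCODE 29, matched by symbol (97.7% of tested genes). Plots used matplotlib 3.10.9.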

Additional observations from a re-analysis of the deposited data

How the results depend on the processing

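The number of members past the threshold was 0 in 16 of 18 alternatives, and leaving out 1 library gave 0 to 1. It was 1 of 6 without knockout replicate 1, where 14.2% of all genes were called. Without wild-type replicate 2 and knockout replicate 1 together it was 2 of 6, where 30.6% of all genes were called. In the fit without that pair MAP3K3 was 0.78 and PDCD10 0.55. When 1 library was left out, log2 fold changes ran from -0.46 to 0.047 for KRIT1, 0.39 to 0.65 for CCM2, 0.31 to 0.62 for PDCD10, -0.063 to 0.32 for HEG1, 0.54 to 0.97 for MAP3K3 and 0.31 to 0.97 for KLF2, and the difference of KLF4 from -0.087 to 0.45. HEG1 turned negative with equal totals (-0.14). STK24 and STK26 turned positive without knockout replicate 1, at 0.068 and 0.023, and their lowest values with 1 library omitted were -0.62 and -0.55. The cause of these changes was not tested.

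Over all genes 1982 were called, 798 with the replicate block, 3210 with DESeq2 and 4706 without the pair of libraries, and 792 to 2192 when 1 library was left out. Of the pathway lists 16 genes were called, or 23.2% against 12.8% of all genes. With the replicate block 4 were called (5.8% against 5.14%), so the share was near that of all genes. Without the pair 32 were called (46.4% against 30.6%), and 4 to 18 when 1 library was left out. The labels do not name cultures, so whether equal replicate numbers belong together is not known. Deviations of same-numbered libraries from their group means correlated at -0.23, -0.40 and 0.17 across genes, and not every library correlated best with its own number. With 3 libraries per genotype these deviations are not independent, so the correlations cannot decide whether the numbers pair the libraries. With the replicate block CCM2 had 0.53 (limma adjusted p = 0.358) and MAP3K3 0.72 (limma adjusted p = 0.269). KLF4, with 5 to 16 reads per library, is limited by depth.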
